A study of Mus musculus with 3 samples.

Results

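S1pr1+ CD4 T cells of the inflamed sciatic nerve were followed here. S1pr1 encodes the sphingosine-1-phosphate receptor 1 (S1PR1), and the cells carrying its transcript were CD4 T cells without the marks of regulatory, helper, Il21 or Il10 producing or dividing cells. They were chosen by a gate on raw UMIs (unique molecular identifiers, each counting 1 captured transcript). A cell had at least 1 UMI of Cd3d, Cd3e or Cd3g, at least 1 of Cd4 and at least 1 of S1pr1. It had none of Cd8a, Cd8b1, Foxp3, Tnfsf8, Tnfsf11, Cd200, Il21, Il10, Cd79a, Mki67 or Top2a, and at most 1 of C1qa, C1qb and C1qc together. The gate found 201 cells among 13770 deposited cells, of which 13637 passed limits of at most 5000 genes and 20% mitochondrial UMIs. The libraries held 65, 111 and 25 of them. Since these genes chose the cells, their levels are given as a description without a test.

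The source was the sciatic nerve of NOD.AireGW/+ mice with neuropathy, female per the methods of the study. NOD.AireGW/+ mice have an allele with partial loss of function in Aire, the gene that lets the thymus display tissue antigens, on the NOD background, which is prone to autoimmunity. Cells with CD45, a marker of immune cells, were isolated from the nerves for 5′ gene expression sequencing. The study gives cardiac perfusion and collagenase IV digestion of nerves under its flow cytometry, and does not restate them for sequencing. Libraries 1 and 2 were from 1 mouse each and library 3 was from 2 pooled mice, so that 4 mice stood behind 3 libraries of 1 group. No control mice were analysed here, and the comparisons below are between CD4 T cell states of the same mice.

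S1PR1 is the receptor with which lymphocytes sense sphingosine-1-phosphate, a lipid that is abundant in blood and lymph and scarce in tissue, and it is needed for lymphocytes to leave lymphoid organs and tissues. Its gene is switched on by the transcription factor KLF2, which is kept active by FOXO1 in resting T cells and lost after antigen receptor stimulation. The surface protein CD69 binds S1PR1 and removes it from the membrane, so that cells with CD69 are held in place. T cells that keep S1PR1, KLF2, TCF-1 (Tcf7) and the interleukin-7 receptor (Il7r) are usually read as resting or recirculating cells. GPR183, a receptor for oxysterols, guides such cells within lymphoid tissue.

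The files held 22983991, 55120460 and 3399733 UMIs in libraries 1 to 3, and cells that passed the limits had a median of 3956, 4632.5 and 1726 UMIs. The S1pr1+ cells summed to 180844, 270965 and 44880 UMIs, so that 1 UMI was worth 5.53, 3.69 and 22.3 CPM (UMIs scaled to a common total for every sum) of their sums. Library 3 was therefore the least precise, and a gene with 3 UMIs over all 201 cells stood at 6.04 CPM. Between libraries 57 barcodes were shared, none of them by S1pr1+ cells of 2 libraries, and 2 barcodes of S1pr1+ cells also appeared in another library.

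Comparisons were made with 3 other gates of Foxp3-zero CD4 T cells. S1pr1-zero cells (81, 141 and 47 in libraries 1 to 3, 269 in all) met every rule of the gate but had no S1pr1 UMI. Helper cells (247, 295 and 81) had at least 1 UMI of Tnfsf8, Tnfsf11 or Cd200, which encode surface ligands of helper T cells, and no Il21 or Il10. Il21/Il10 cells (140, 195 and 21) had at least 1 UMI of either cytokine. The last 2 gates took cells with any S1pr1. UMIs were summed per library and gate and compared by edgeR's quasi-likelihood test, blocked on library, and a gene was called when its Benjamini-Hochberg adjusted p over all 4282 genes tested was under 0.05. The block takes up level differences between libraries that all gates share. The p-values therefore measure how much the differences between gates varied over these 3 libraries. That spread was estimated from the S1pr1+ sums and the sums of all 3 other gates together, not only from the gates compared. All comparisons share the sums of the S1pr1+ cells, so they are not independent of each other. In such sums, fewer cells with a transcript and less RNA per cell cannot be told apart.

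Of the genes tested, 42 were higher and 78 lower in S1pr1+ than in S1pr1-zero cells, together 120 or 2.8% of all genes (0.981% higher and 1.82% lower). DESeq2, which gave an adjusted p for only 1460 genes, called 75 higher and 52 lower in the same comparison. Against helper cells 201 genes were called (4.69%), of which 74 were higher (1.73%) and 127 lower (2.97%). Against Il21/Il10 cells 538 were called (12.6%), with 278 higher (6.49%) and 260 lower (6.07%). The median log2 difference of all genes was -0.00, 0.02 and 0.03 in the 3 comparisons. On simulated sums of the S1pr1-zero comparison, shares were taken of the changed genes that could be tested. The test found 90.6% of those set to differ 4-fold and 37.5% of those set to differ 2-fold. Against helper and Il21/Il10 cells the calls leaned most on library 2, and against S1pr1-zero cells on libraries 1 and 2 alike. Library 2 held 111 of the 201 cells. Without library 2, 27, 13 and 95 of 3668 genes tested were called against S1pr1-zero, helper and Il21/Il10 cells. Without library 1 the counts were 28, 58 and 231 of 4004 genes. Leaving out library 3 gave 239, 208 and 606 of 6335 genes.

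Because the RNA of a gene is measured per cell by few UMIs, S1pr1 itself was looked at in detail. S1pr1 lies at chr3:115710433-115715072 on the minus strand (mm10). Its level in the gated cells was 1095, 786 and 824 CPM. Of the 201 cells, 109 (54.2%) held 2 or more S1pr1 UMIs and 92 just passed the gate with exactly 1, and the highest cell of each library held 9, 6 and 3. When the UMIs of S1pr1+ and S1pr1-zero cells were split at random and one part alone decided which cells held S1pr1, the other part still had 963, 679 and 392 CPM of S1pr1 in those cells. Cells without S1pr1 in the deciding part had 258, 233 and 166 CPM in the other. S1pr1-zero cells hold no S1pr1 UMI in either part by the gate, so all of these UMIs were from S1pr1+ cells.

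Other cells also carried S1pr1. For these shares cells kept the gate of their full counts. When every cell was thinned to 1000 UMIs and shallower cells were left out, 65.4%, 62.6% and 60.0% of the gated cells kept an S1pr1 UMI. The corresponding shares were 24.4%, 18.8% and 15.5% of helper cells, 11.9%, 3.63% and 15.0% of Il21/Il10 cells, 11.1%, 9.14% and 8.70% of Foxp3+ CD4 T cells and 9.75%, 7.49% and 7.52% of CD8 T cells. B cells, which also use S1PR1 to recirculate, had 21.8%, 13.5% and 19.4%. Macrophages were at 0.778% in library 2, where 1800 of them had enough UMIs. The gate thus holds the S1pr1+ cells that lacked the marks of the other CD4 states, and not all S1pr1+ T cells of the nerve.

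The label resting-like was checked on the 4 markers that did not set the gate. Klf2 was at 1664, 1262 and 1092 CPM in S1pr1+ cells of libraries 1 to 3 and at 737, 371 and 474 CPM in S1pr1-zero cells. It was 2.80-fold higher (log2 difference 1.49 ± 0.20 SE, adjusted p = 7.79e-05). Tcf7 was at 304, 303 and 201 CPM against 61.4, 95.9 and 73.0 CPM (1.90 ± 0.25, adjusted p = 7.17e-05). Il7r was at 912, 886 and 735 CPM against 335, 343 and 559 CPM (1.23 ± 0.21, adjusted p = 0.00139). Gpr183 was at 321, 203 and 134 CPM against 145, 80.4 and 97.3 CPM, higher in each of the 3 libraries but past no threshold (1.20 ± 0.35, adjusted p = 0.063). Of the markers, Tcf7 was called whichever library was left out. Klf2 was not called without library 2 (1.20, adjusted p = 0.0798), and Il7r was not called without library 1 (1.07, adjusted p = 0.0566) or library 2 (0.98, adjusted p = 0.247).

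Against helper cells, all 4 markers were higher. Helper cells had 719, 427 and 255 CPM of Klf2 in libraries 1 to 3 (difference 1.56 ± 0.19, adjusted p = 4.19e-05), and this call stood whichever library was left out. Gpr183 was at 164, 71.8 and 5.68 CPM in helper cells (1.33 ± 0.29, adjusted p = 0.00857). Tcf7 differed least (0.83 ± 0.19, adjusted p = 0.0117), with 184, 156 and 136 CPM in helper cells, and Il7r likewise (0.84 ± 0.19, adjusted p = 0.00887). Without library 2 the adjusted p was 0.553 for Tcf7, 0.585 for Il7r and 0.305 for Gpr183, and Tcf7 also missed the threshold without library 1 (0.134). The differences were wider against Il21/Il10 cells, where Klf2 was at 220, 83.0 and 92.5 CPM (11.3-fold, 3.50 ± 0.22, adjusted p = 4.46e-10). There Tcf7 was 5.66-fold, Il7r 4.07-fold and Gpr183 5.96-fold higher in S1pr1+ cells. These 4 calls stood whichever library was left out.

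**Figure D1:**
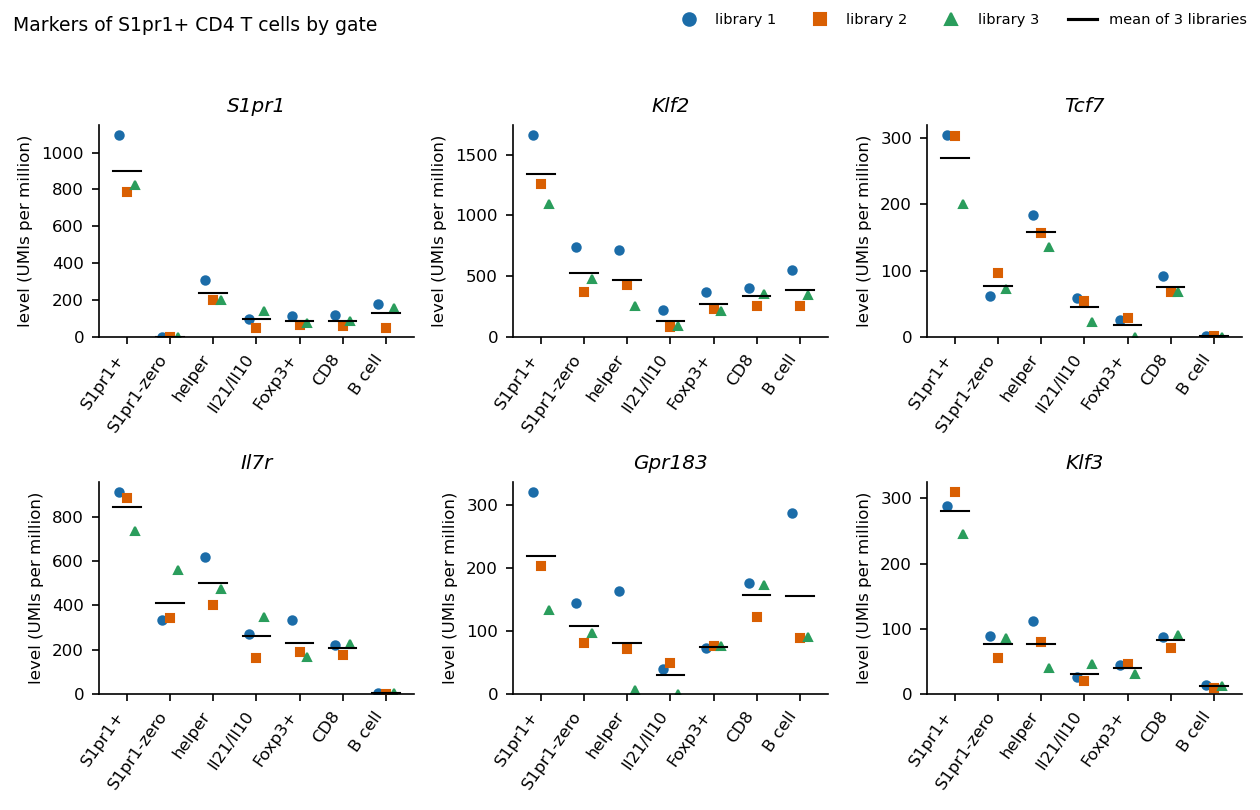
Level of S1pr1, Klf2, Tcf7, Il7r, Gpr183 and Klf3 (CPM of the summed UMIs, vertical axis from 0) in each gate of cells (horizontal axis), with a point per library and a line at the mean of the 3 libraries. Klf2, Tcf7 and Il7r of S1pr1+ cells lie above those of S1pr1-zero cells in all 3 libraries, and S1pr1, which set the gate, is shown as a description.

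The markers were also set out by the number of S1pr1 UMIs per cell. In library 2, which had the most cells, Tcf7 was at 95.9 CPM in 141 cells with no S1pr1 UMI, 253 CPM in 55 cells with 1 and 355 CPM in 56 cells with 2 or more. Klf2 followed with 371, 1162 and 1368 CPM, and Il7r with 343, 721 and 1058 CPM. In library 1, Klf2 was at 737, 892 and 1886 CPM in cells with 0, 1 and 2 or more S1pr1 UMIs, and Tcf7 at 61.4, 248 and 320 CPM. Il7r was at 335, 992 and 890 CPM there and Gpr183 at 145, 471 and 278 CPM, both highest in cells with 1 UMI. These were 21 cells, and 44 had 2 or more. Cxcr6, a chemokine receptor of T cells that stay in tissue, went the other way, at 356, 152 and 22.7 CPM in library 2 and at 658, 719 and 164 CPM in library 1. In library 1 the cells with 1 UMI were thus near S1pr1-zero cells in Klf2 and Cxcr6 but not in Tcf7, Il7r or Gpr183, and in library 2 they lay between the others in Klf2, Tcf7, Il7r and Cxcr6. Library 3 had 16 cells with 1 and 9 with more, too few to rank. Between these, Tcf7 fell from 235 to 133 CPM and Il7r from 906 to 398 CPM. Klf2 went from 1040 to 1193 CPM and Gpr183 from 101 to 199 CPM. Cells with more UMIs in all are likelier to show 2 S1pr1 UMIs, and these levels were not thinned. In library 1 the median cell with 0, 1 and 2 or more had 1186, 1152 and 3217 UMIs.

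**Figure D2:**
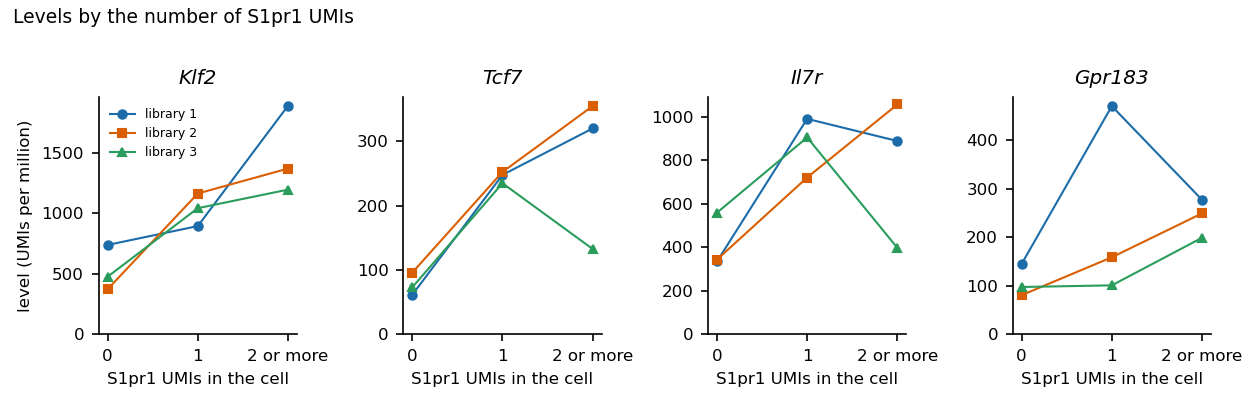
Levels of Klf2, Tcf7, Il7r and Gpr183 (CPM, vertical axis from 0) in cells with 0, 1 and 2 or more S1pr1 UMIs (horizontal axis), with a line per library and no error bar since each point is 1 sum. In library 2 each of Klf2, Tcf7 and Il7r climbs at both steps, and the last point of library 3 rests on 9 cells.

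After thinning to 1000 UMIs, 69.2%, 58.9% and 60.0% of S1pr1+ cells held Klf2 in libraries 1 to 3 (66.2%, 77.5% and 72.0% before thinning), against 16.0%, 23.6% and 28.9% of S1pr1-zero cells. Il7r was held by 48.1%, 53.3% and 40.0% against 26.0%, 27.6% and 39.5%, and Tcf7 by 26.9%, 26.2% and 20.0% against 8.0%, 8.66% and 5.26%. The share of B cells with Il7r, which mature B cells should lack, was 0.948% in library 1 and 1.49% in library 3. Single S1pr1+ cells therefore showed different subsets of the markers at this depth. Over the 3 libraries 179 S1pr1+ cells had at least 1000 UMIs, and 64 held both Klf2 and Il7r where 55.7 would by the product of the single shares per library. Tcf7 and Il7r were both held by 32 (product 23.2), and Tcf7 and Ccl5, the chemokine of effector cells, by 5 (product 12.6). Other pairs did not follow this pattern. Tcf7 and Gpr183 were both held by 5 (product 8.73), Tcf7 and Lef1 by 1 (4.23) and Il7r and Lef1 by 5 (8.21). Klf2 and Ccl5 were both held by 32 (31.1) and Il7r and Ccl5 by 25 (23.9). The pairs are a description without a test.

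KLF factors bind the letters CACCC, and the start regions of 4 of the genes that were higher in S1pr1+ cells are shown to let the letters be seen in place. Windows ran from 250 bases before to 50 bases after a gene's start in RefSeq (GRCm38.p6), printed 5′ to 3′ on the gene's strand. Capitals mark CACCC or its reverse complement GGGTG.
Klf2, plus strand, chr8:72318812-72319111: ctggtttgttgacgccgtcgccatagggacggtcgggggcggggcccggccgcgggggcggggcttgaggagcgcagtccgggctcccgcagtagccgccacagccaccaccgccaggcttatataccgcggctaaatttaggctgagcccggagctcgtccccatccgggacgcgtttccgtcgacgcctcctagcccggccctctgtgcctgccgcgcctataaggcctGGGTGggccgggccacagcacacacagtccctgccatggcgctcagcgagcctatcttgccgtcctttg
Klf3, plus strand, chr5:64803271-64803570: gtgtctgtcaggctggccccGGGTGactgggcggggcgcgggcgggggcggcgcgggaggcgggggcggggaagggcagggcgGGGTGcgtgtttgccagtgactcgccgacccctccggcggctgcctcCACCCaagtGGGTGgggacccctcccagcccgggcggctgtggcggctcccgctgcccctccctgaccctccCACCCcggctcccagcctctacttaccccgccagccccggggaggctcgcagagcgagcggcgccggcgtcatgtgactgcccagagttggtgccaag
Tcf7, minus strand, chr11:52282965-52283264: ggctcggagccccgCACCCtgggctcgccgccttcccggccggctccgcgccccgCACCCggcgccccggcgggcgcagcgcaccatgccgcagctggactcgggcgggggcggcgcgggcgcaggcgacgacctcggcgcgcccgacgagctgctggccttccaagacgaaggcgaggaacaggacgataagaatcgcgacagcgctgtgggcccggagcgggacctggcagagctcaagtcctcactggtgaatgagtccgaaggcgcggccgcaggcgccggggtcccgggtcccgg
Il7r, minus strand, chr15:9529827-9530126: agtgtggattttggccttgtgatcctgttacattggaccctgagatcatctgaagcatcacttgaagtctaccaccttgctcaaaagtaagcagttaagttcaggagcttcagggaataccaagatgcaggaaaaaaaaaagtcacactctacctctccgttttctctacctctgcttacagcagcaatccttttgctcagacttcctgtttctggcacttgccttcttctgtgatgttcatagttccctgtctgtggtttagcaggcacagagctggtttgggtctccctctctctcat
The Klf3 window held CACCC 5 times on either strand, that of Tcf7 2 times, that of Klf2 1 time and that of Il7r 0 times. The Gpr183 window held none and the S1pr4 window 1. Of all 32544 windows, 57.7% held CACCC, so most windows held it. The FOXO letters GTAAACA (3.66% of windows) were found in a second Tcf7 window, chr11:52282546-52282845, and in none of the windows printed. The TCF and LEF letters CTTTGAT or CTTTGAA (8.67% of windows) were in none of these windows. The genes S1pr1 and Ccr7 were not matched. A match is a description of the letters and not a binding site.

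Among the genes of the sphingosine-1-phosphate pathway, 6 of 17 were measured well enough to be tested. Klf2 was called in all 3 comparisons, and S1pr4, a sister receptor on lymphocytes, in 2 of them. S1pr4 was at 199, 159 and 89.1 CPM in S1pr1+ cells, 93.3, 74.7 and 56.8 CPM in helper cells (1.07 ± 0.25, adjusted p = 0.0133) and 51.1, 56.6 and 69.4 CPM in Il21/Il10 cells (1.67 ± 0.28, adjusted p = 0.000208). The call against helper cells did not stand without library 1 (adjusted p = 0.182) or 2 (0.424), nor that against Il21/Il10 cells without library 2 (0.0622), and against S1pr1-zero cells S1pr4 did not pass (adjusted p = 0.274). S1pr2 had 1, 1 and 0 UMIs in S1pr1+ cells and S1pr3 had 0. Cd69, whose product removes S1PR1 from the surface, was at 398, 173 and 44.6 CPM in S1pr1+ cells against 396, 217 and 73.0 CPM in S1pr1-zero cells, and it passed the threshold in no comparison (log2 differences -0.11 ± 0.28, -0.21 ± 0.25 and 0.44 ± 0.26). S1pr1 and Cd69 transcripts were thus both present in the gated sums. Of the signalling genes, Gnai2, the G protein subunit of S1PR1, was at 271, 509 and 602 CPM, Arrb2 at 227, 129 and 111 CPM and the receptor kinase Grk2 at 44.2, 166 and 89.1 CPM, and none was called.

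Some of the wider set of homing and egress genes were higher in S1pr1+ cells. Against S1pr1-zero cells 3 of 16 tested were called, all higher. Against helper cells 7 were higher and 1 lower, and against Il21/Il10 cells 8 were higher and none lower. Over all genes 0.981%, 1.73% and 6.49% were called higher. The medians of the 16 log2 differences were 0.57, 0.59 and 0.66, beside -0.00, 0.02 and 0.03 over all genes. Without library 2 the counts of higher genes fell to 0, 1 and 3.

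Klf3, a relative of KLF2 that can restrain KLF target genes, was at 288, 310 and 245 CPM in S1pr1+ cells and at 89.3, 55.7 and 85.1 CPM in S1pr1-zero cells. It was 4.29-fold higher (2.10 ± 0.28, adjusted p = 7.79e-05), 3.42-fold higher than in helper cells (1.77 ± 0.22, adjusted p = 5.42e-05) and 13.2-fold higher than in Il21/Il10 cells (3.72 ± 0.29, adjusted p = 7.7e-09). Leaving out library 2 ended the first call (1.64, adjusted p = 0.12) and the second (1.63, adjusted p = 0.0598), as did thinning (1.03, adjusted p = 0.337, and 1.15, adjusted p = 0.308), but neither ended the third. For tests after thinning, unlike for shares of cells holding a gene, gates were set anew on the thinned counts. The cells compared thus changed along with their depth, with 115 and 180 S1pr1-zero and 129 and 126 helper cells in libraries 1 and 2.

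Ccr7, the chemokine receptor with which T cells enter lymph nodes and lymph vessels, did not follow Klf2. It was at 415, 325 and 646 CPM in S1pr1+ cells, above the 179, 92.8 and 219 CPM of S1pr1-zero cells (1.61 ± 0.26, adjusted p = 0.000666). This difference lay on the other side of 0 after thinning and gating anew (-0.07, adjusted p = 0.97). It missed the threshold without library 2 (1.39, adjusted p = 0.12). Helper cells had more Ccr7, at 535, 580 and 1828 CPM (-0.85 ± 0.20, adjusted p = 0.0151). That call was lost without library 2 (-0.95, adjusted p = 0.274), without library 3 (-0.61, adjusted p = 0.107) and after thinning (-1.28, adjusted p = 0.11), always with the same sign. The S1pr1+ cells thus had Klf2 and Klf3 transcripts, and less Ccr7 than helper cells in the sums of all 3 libraries.

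Itgb7, an integrin chain, was at 514, 332 and 267 CPM and was higher than in helper cells (0.87 ± 0.18, adjusted p = 0.00691) and Il21/Il10 cells (0.99 ± 0.20, adjusted p = 0.00137). Selplg, the ligand of selectins on T cells, was at 752, 483 and 446 CPM against 504, 354 and 176 CPM in helper cells (0.66 ± 0.17, adjusted p = 0.0263). Foxo1, the activator of Klf2, was at 216, 96.0 and 89.1 CPM and passed against helper (0.89 ± 0.25, adjusted p = 0.042) and Il21/Il10 cells (0.82 ± 0.26, adjusted p = 0.0405). The calls of Selplg and Foxo1 did not stand when any library was left out, with adjusted p from 0.0708 to 0.274 for Selplg and from 0.0578 to 0.67 for Foxo1. Without library 2 those of Itgb7 were at adjusted p = 0.359 and 0.221.

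Some genes of quiescence and of stem-like T cells were also higher. Of 21 tested, 5 were higher and none lower than in S1pr1-zero cells, 8 were higher and 1 lower than in helper cells, and 11 were higher and none lower than in Il21/Il10 cells. Their medians were 0.50, 0.42 and 0.72. Of all genes, 0.981%, 1.73% and 6.49% were called higher. Against S1pr1-zero cells 20 of the 21 differences were above 0, and 2, 1 and 7 genes were called without libraries 1, 2 and 3. Against helper cells no gene of the list was called without library 2.

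Lef1, the partner of TCF-1, was at 199, 118 and 66.8 CPM in S1pr1+ cells against 57.6, 58.4 and 28.4 CPM in helper cells (1.41 ± 0.28, adjusted p = 0.00432) and 34.1, 35.2 and 23.1 CPM in Il21/Il10 cells (2.14 ± 0.33, adjusted p = 8.07e-05). Satb1, a chromatin organiser of naive T cells, was at 122, 114 and 201 CPM against 33.7, 29.7 and 22.7 CPM in helper cells (4.16-fold, 2.06 ± 0.31, adjusted p = 0.000229). Neither gene passed against S1pr1-zero cells (adjusted p = 0.118 and 0.188). Slamf6, a surface receptor of stem-like T cells, passed there (1.07 ± 0.25, adjusted p = 0.0153), with 282, 258 and 156 CPM against 134, 130 and 97.3 CPM. Without library 2 the adjusted p of the helper comparison was 0.114 for Lef1 (0.223 without library 1) and 0.0621 for Satb1, and that of Slamf6 was 0.406 (0.187 without library 1). Txnip, which limits glucose uptake, and Tob1, a brake on proliferation, were higher than in helper cells (0.89 ± 0.25, adjusted p = 0.0377, and 0.83 ± 0.22, adjusted p = 0.0332) and Il21/Il10 cells (1.41 ± 0.27, adjusted p = 0.00108, and 1.07 ± 0.24, adjusted p = 0.00404). The helper calls of both were lost without library 1 or 2 (adjusted p from 0.198 to 0.823) and that of Tob1 also without library 3 (0.0784). The Il21/Il10 calls were lost without library 2 (0.207 and 0.269) and that of Tob1 without library 1 (0.0662). Txnip was at 160, 129 and 89.1 CPM against 105, 49.8 and 90.8 CPM in helper cells, and thus not higher in library 3.

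Cytokine receptor genes differed by comparison. Of 14 tested, Il7r and Il6ra were higher and Il2ra lower than in S1pr1-zero cells. Against helper cells 5 were higher and none lower, and against Il21/Il10 cells 6 were higher and 1 lower. Over all genes 2.8%, 4.69% and 12.6% were called in these comparisons. Il6ra, the interleukin-6 receptor of naive and central memory cells, was at 144, 99.6 and 66.8 CPM against 67.0, 37.1 and 24.3 CPM in S1pr1-zero cells (1.36 ± 0.35, adjusted p = 0.0336, and 0.331 and 0.59 without libraries 1 and 2). Il2ra, the high-affinity interleukin-2 receptor chain of activated cells, was at 16.6, 3.69 and 0 CPM against 145, 68.0 and 24.3 CPM (10.1-fold lower, -3.33 ± 0.64, adjusted p = 0.00362, and 0.12 without library 2). Ifngr1, the receptor for interferon-γ, was at 1991, 1233 and 1560 CPM, above the 1003, 554 and 687 CPM of helper cells (1.12 ± 0.14, adjusted p = 5.88e-05). S1pr1-zero cells had about as much Ifngr1 as S1pr1+ cells, at 1953, 1225 and 1690 CPM (0.05 ± 0.15). The Ifngr1 call against helper cells was at adjusted p = 0.0621 without library 2.

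Some genes outside these lists were among those with the largest differences. Esm1, which encodes the secreted proteoglycan endocan, was at 105, 122 and 223 CPM against 11.2, 34.0 and 24.3 CPM in S1pr1-zero cells (5.22-fold, 2.39 ± 0.41, adjusted p = 0.00156), and this call stood whichever library was left out. Emb, a chaperone of lactate transporters, was at 774, 657 and 869 CPM against 279, 263 and 742 CPM (1.12 ± 0.21, adjusted p = 0.0029), 370, 293 and 386 CPM in helper cells (1.15 ± 0.18, adjusted p = 0.000426) and 90.9, 72.9 and 92.5 CPM in Il21/Il10 cells (8.92-fold, 3.16 ± 0.23, adjusted p = 3.04e-09). The first 2 Emb calls were lost without library 2 (adjusted p = 0.457 and 0.142) and the first also without library 1 (0.17). Rflnb was at 376, 266 and 245 CPM against 123, 127 and 97.3 CPM in S1pr1-zero cells (1.39 ± 0.28, adjusted p = 0.00569, and 0.111 and 0.127 without libraries 1 and 2). Gramd3 differed from helper cells whichever library was left out, at 752, 399 and 357 CPM against 274, 192 and 148 CPM (1.29 ± 0.19, adjusted p = 0.000214). Txk, a kinase of the antigen receptor pathway, was at 160, 96.0 and 134 CPM against 46.6, 35.4 and 28.4 CPM in helper cells (1.68 ± 0.27, adjusted p = 0.000426, and 0.0655 and 0.0598 without libraries 1 and 2).

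**Figure D3:**
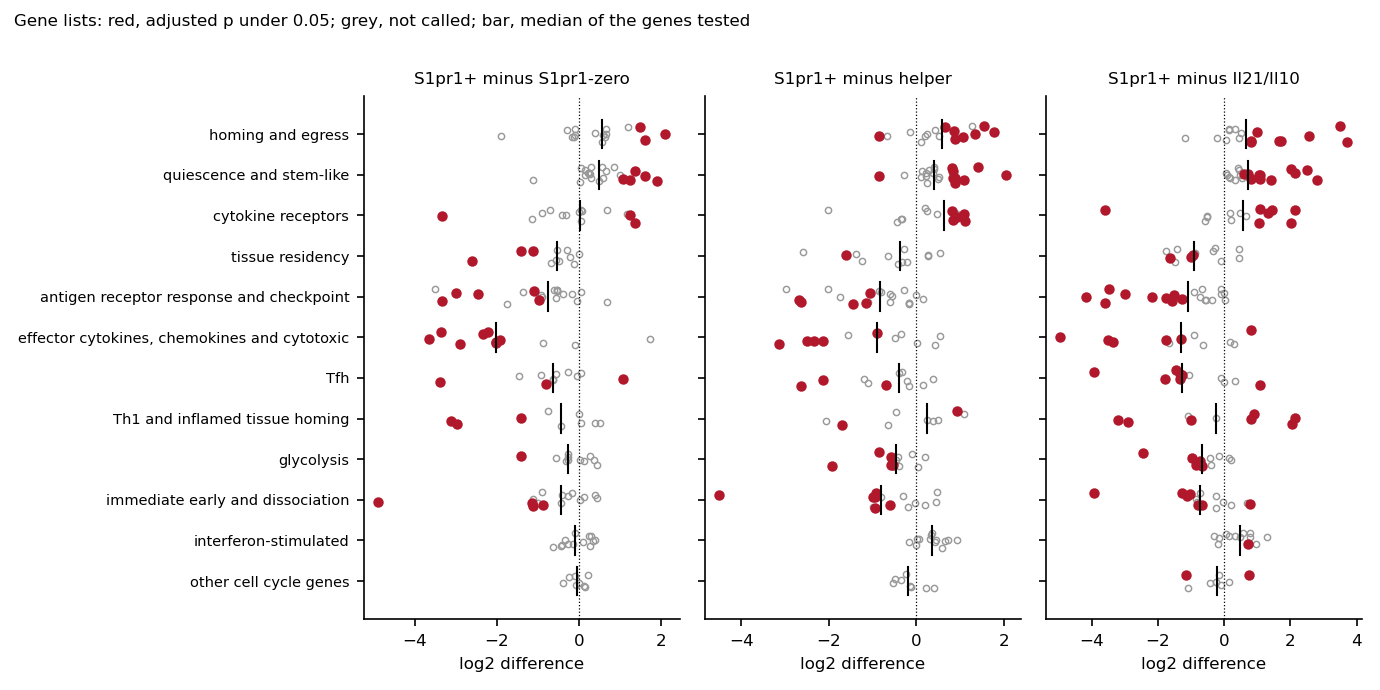
Log2 differences (horizontal axis) of the tested genes of 12 lists (rows) between S1pr1+ cells and S1pr1-zero, helper and Il21/Il10 cells (panels), with called genes in red, others in grey and the median of each list as a bar. Called effector genes lie left of 0 in the first panel (8 of 11 tested) and called homing and quiescence genes lie right of it.

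Genes of tissue residency were lower or did not pass. Of 12 tested, 3 were lower than in S1pr1-zero cells, 1 than in helper cells and 3 than in Il21/Il10 cells. None was higher, and the medians were -0.54, -0.37 and -0.91. Over all genes 1.82%, 2.97% and 6.07% were called lower. Cxcr6 was at 288, 88.6 and 22.3 CPM against 658, 356 and 48.6 CPM in S1pr1-zero cells (-1.42 ± 0.25, adjusted p = 0.00228, and 0.385 without library 2). Itgae (CD103), the integrin chain that binds E-cadherin, was at 16.6, 18.5 and 0 CPM against 218, 58.8 and 12.2 CPM (6.13-fold lower, -2.62 ± 0.52, adjusted p = 0.00512). This call stood without library 2 or 3, and Itgae was too low to be tested without library 1. Bhlhe40, a transcription factor of resident and cytokine-producing T cells, was at 249, 240 and 468 CPM against 792, 662 and 413 CPM, lower in 2 of 3 libraries (-1.13 ± 0.23, adjusted p = 0.00613, and 0.355 and 0.508 without libraries 1 and 2). It was lower than in helper cells in each library (868, 706 and 1107 CPM, -1.60 ± 0.22, adjusted p = 0.000144, and 0.0607 without library 2). Rgs1, which dampens chemokine receptor signals and holds T cells in tissue, was at 1056, 830 and 3766 CPM and passed only against Il21/Il10 cells (-0.93 ± 0.18, adjusted p = 0.00108, and 0.147 without library 2).

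Some antigen receptor response and checkpoint genes were lower in S1pr1+ cells. Of 20 tested, 5 were lower than in S1pr1-zero cells, 5 than in helper cells and 10 than in Il21/Il10 cells, and none was higher. The medians were -0.75, -0.83 and -1.09. The shares of all genes called lower were 1.82%, 2.97% and 6.07%. Lag3, an inhibitory receptor, was at 127, 3.69 and 66.8 CPM in S1pr1+ cells against 658, 418 and 255 CPM in S1pr1-zero cells (7.92-fold lower, -2.99 ± 0.40, adjusted p = 7.79e-05) and 1119, 890 and 1272 CPM in Il21/Il10 cells (18-fold lower, -4.17 ± 0.37, adjusted p = 5.45e-08). Both calls stood whichever library was left out. Against the 400, 292 and 386 CPM of helper cells (-2.65 ± 0.39, adjusted p = 0.000225) the adjusted p was 0.0501 without library 2.

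Ctla4, a further inhibitory receptor, was at 835, 565 and 490 CPM against 2249, 999 and 790 CPM in S1pr1-zero cells (-0.96 ± 0.18, adjusted p = 0.00351) and Tigit at 265, 159 and 512 CPM against 636, 461 and 669 CPM (-1.09 ± 0.19, adjusted p = 0.00181). Neither passed against helper cells (adjusted p = 0.493 and 0.057). Without libraries 1 and 2 the S1pr1-zero comparison gave adjusted p of 0.211 and 0.111 for Ctla4 and 0.0997 and 0.305 for Tigit. Tnfrsf4 (OX40), a costimulatory receptor, was at 437, 406 and 602 CPM against 974, 744 and 1334 CPM in helper cells (-1.06 ± 0.19, adjusted p = 0.00141, and 0.115 without library 2). Pdcd1, which encodes PD-1, and Icos, the receptor of T cell help to B cells, passed in no comparison. Pdcd1 was at 464, 144 and 111 CPM against 586, 229 and 426 CPM in S1pr1-zero cells (-0.56 ± 0.22, adjusted p = 0.192) and Icos at 1554, 793 and 646 CPM against 1529, 792 and 1143 CPM (-0.06 ± 0.20).

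Most effector genes tested were lower than in S1pr1-zero cells. Of 11 tested, 8 were lower and none higher (median -2.03, beside -0.00 over all genes). Against helper cells 5 were lower and none higher (median -0.89), and against Il21/Il10 cells 5 were lower and 1, Fasl, higher (median -1.31). Of all genes, 1.82%, 2.97% and 6.07% were called lower in the 3 comparisons. Without libraries 1, 2 and 3 the S1pr1-zero comparison had 6, 4 and 9 lower effector genes, and after thinning 4 of the 8 that could be tested.

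Nkg7, a component of cytotoxic granules, was at 365, 288 and 111 CPM against 1144, 1379 and 839 CPM in S1pr1-zero cells (4.08-fold lower, -2.03 ± 0.22, adjusted p = 1.45e-05). Ccl4, a chemokine that attracts immune cells, was at 44.2, 144 and 44.6 CPM against 1004, 581 and 243 CPM (7.40-fold lower, -2.89 ± 0.39, adjusted p = 7.79e-05). Klrd1, a killer cell lectin receptor, was at 22.1, 11.1 and 0 CPM against 240, 130 and 36.5 CPM (10.3-fold lower, -3.37 ± 0.43, adjusted p = 6.72e-05). These 3 genes were lower in each library and were called whichever library was left out. Ccl5 was at 2317, 1236 and 446 CPM against 5391, 6304 and 7089 CPM (-2.02 ± 0.38, adjusted p = 0.00351), and without library 2 the adjusted p was 0.0966. Of B cells, which should lack Ccl5, 29.9%, 3.08% and 16.4% held it after thinning, against 51.9%, 17.8% and 10.0% of S1pr1+ cells. The S1pr1+ share was thus below that of B cells in library 3. Whether free RNA or doublets gave the B cells their Ccl5 was not tested.

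Ifng, the main cytokine of Th1 cells, was at 38.7, 51.7 and 22.3 CPM in S1pr1+ cells, 184, 201 and 122 CPM in S1pr1-zero cells (-1.93 ± 0.48, adjusted p = 0.0274), 163, 345 and 284 CPM in helper cells (5.66-fold lower, -2.50 ± 0.41, adjusted p = 0.000658) and 560, 371 and 971 CPM in Il21/Il10 cells (11.3-fold lower, -3.50 ± 0.40, adjusted p = 1.65e-06). The last 2 calls stood whichever library was left out, and the first did not without libraries 1 and 2 (adjusted p = 0.0997 and 0.11). Gzmb, the serine protease granzyme B, was at 111, 44.3 and 22.3 CPM against 151, 557 and 97.3 CPM in S1pr1-zero cells (-2.22 ± 0.39, adjusted p = 0.00181), a difference that stood at 0.09 with adjusted p = 0.96 after thinning and at -0.68 with adjusted p = 0.829 without library 2. Gzmk, another granzyme, did not pass in any comparison, at 205, 70.1 and 134 CPM against 279, 217 and 231 CPM (-0.89 ± 0.29, adjusted p = 0.116). Csf1, a growth factor for macrophages, had no UMI in S1pr1+ cells and 167, 40.2 and 36.5 CPM in S1pr1-zero cells. With the floor of 3 UMIs over the group it was at least 13.0-fold lower (adjusted p = 0.00228), a call that stood without library 2 or 3 and could not be tested without library 1.

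**Figure D4:**
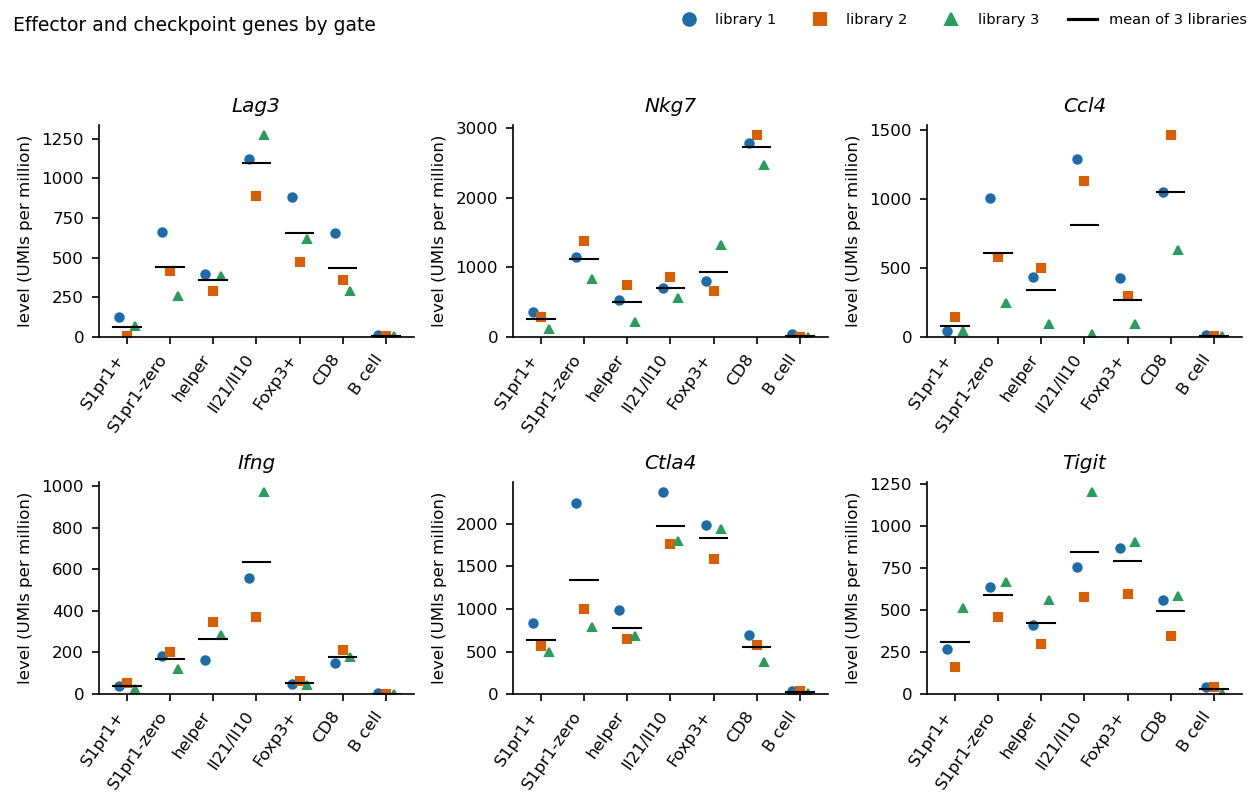
Level of Lag3, Nkg7, Ccl4, Ifng, Ctla4 and Tigit (CPM, vertical axis from 0) in each gate of cells (horizontal axis), with a point per library and a line at the mean of the 3 libraries. Lag3, Nkg7, Ccl4 and Ifng of S1pr1+ cells lie below those of S1pr1-zero cells in all 3 libraries, and B cells lie near 0.

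The helper programs were compared next. Of 11 genes of follicular helper (Tfh) cells tested, 1 was higher and 2 lower than in S1pr1-zero cells, 3 were lower than in helper cells, and 1 was higher and 6 lower than in Il21/Il10 cells. The higher gene, Slamf6, is also a stem-like marker. Over all genes 2.8%, 4.69% and 12.6% were called in the 3 comparisons. Izumo1r (folate receptor 4) was at 155, 177 and 357 CPM against 432, 602 and 740 CPM in Il21/Il10 cells (-1.46 ± 0.19, adjusted p = 8.01e-06), and Maf, an activator of Il21, at 199, 177 and 223 CPM against 596, 453 and 416 CPM (-1.33 ± 0.20, adjusted p = 8.59e-05). Both calls stood whichever library was left out. Angptl2 had 2 UMIs in S1pr1+ cells and was 11.0-fold lower than in S1pr1-zero cells (95% counting interval 2.76 to 96.0).

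Of 9 genes of Th1 cells and homing to inflamed tissue tested, 3 were lower than in S1pr1-zero cells. Against helper cells 1 was higher and 1 lower, and against Il21/Il10 cells 4 were higher and 3 lower. The shares of all genes called were 2.8%, 4.69% and 12.6%. Cxcr3, the receptor for interferon-induced chemokines, was at 304, 203 and 290 CPM against 441, 182 and 158 CPM in S1pr1-zero cells (0.00 ± 0.23). Il18r1, the interleukin-18 receptor, was at 166, 177 and 66.8 CPM against 49.2, 35.2 and 0 CPM in Il21/Il10 cells (2.13 ± 0.30, adjusted p = 2.65e-05, and 0.403 after thinning). Of 6 genes of Th2 and Th17 cells tested, Ccr8 was lower in all comparisons, at 77.4, 3.69 and 0 CPM against 212, 78.5 and 176 CPM in helper cells (-2.26 ± 0.42, adjusted p = 0.002, and 0.134 without library 2). The Ccr8 call against S1pr1-zero cells (-1.85 ± 0.48, adjusted p = 0.0353) was lost without library 1 (0.0922) or 2 (0.388). Rora and Gata3 were higher than in Il21/Il10 cells (1.68 ± 0.30, adjusted p = 0.000515, and 1.38 ± 0.38, adjusted p = 0.0175). Gata3 was at 232, 33.2 and 111 CPM against 51.1, 37.7 and 46.3 CPM, and thus lower in library 2. Without library 2 Rora was at adjusted p = 0.128, and without library 1 Gata3 was at 0.904.

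Of 11 glycolysis genes tested, 1 was lower than in S1pr1-zero cells, 5 than in helper cells and 6 than in Il21/Il10 cells. None was higher, and 1.82%, 2.97% and 6.07% of all genes were called lower. Tpi1, triose phosphate isomerase, was at 49.8, 29.5 and 22.3 CPM against 221, 202 and 208 CPM in Il21/Il10 cells (5.48-fold lower, -2.46 ± 0.30, adjusted p = 3.88e-06), a call that stood whichever library was left out, and against 183, 107 and 153 CPM in helper cells (-1.92 ± 0.30, adjusted p = 0.000426, and 0.0509 without library 2). Ldha, lactate dehydrogenase, was at 885, 808 and 1292 CPM and passed in no comparison (0.36 ± 0.17, 0.20 ± 0.16 and 0.14 ± 0.17). Dusp14, a phosphatase of the antigen receptor pathway, was at 5.53, 11.1 and 22.3 CPM against 114, 265 and 482 CPM in helper cells (21.8-fold lower, -4.45 ± 0.57, adjusted p = 5.42e-05) and 278, 316 and 162 CPM in Il21/Il10 cells (28.0-fold lower, -4.81 ± 0.56, adjusted p = 2.13e-06). Both Dusp14 calls stood whichever library was left out. Nrgn had no UMI in S1pr1+ cells and was at least 14.7-fold lower than in helper cells, which had 53.6, 102 and 216 CPM (adjusted p = 0.000173), a call that stood without library 1 or 3 and could not be tested without library 2.

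Immediate early genes, which are induced by stimulation and also by tissue digestion, were lower in part. Of 15 tested, 4 were lower than in S1pr1-zero cells, 6 than in helper cells and 6 than in Il21/Il10 cells, where 1 was higher. Among all genes 1.82%, 2.97% and 6.07% were called lower. Dusp1 was at 630, 487 and 290 CPM against 837, 1250 and 657 CPM in S1pr1-zero cells (-0.87 ± 0.20, adjusted p = 0.0121, and 0.605 without library 2). Zfp36 was at 293, 303 and 357 CPM against 1049, 510 and 572 CPM in S1pr1-zero cells (-1.13 ± 0.24, adjusted p = 0.00829) and 869, 509 and 409 CPM in helper cells (-0.96 ± 0.23, adjusted p = 0.0185), a difference that turned to 0.08 after thinning. Without libraries 1 and 2 the adjusted p was 0.366 and 0.0798 in the first and 0.42 and 0.228 in the second comparison. Against Il21/Il10 cells Zfp36 was lower (-0.80 ± 0.24, adjusted p = 0.029) but stood at 0.11 without cells of over 1% macrophage and dendritic marker UMIs and at 0.23 under a stricter exclusion of other cell types. Without cells of over 1% such UMIs the counts of lower genes were 1, 3 and 3.

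Markers of other cell types were summed over each list. Macrophage and dendritic markers made up 1902, 1845 and 9158 CPM of the S1pr1+ sums in libraries 1 to 3, 8739, 6938 and 462 CPM of S1pr1-zero, 9914, 7825 and 3394 CPM of helper and 9260, 8964 and 12973 CPM of Il21/Il10 sums. S1pr1+ cells were low in libraries 1 and 2 and high in library 3, where 1 cell had 7.79% of its UMIs from this list. Of 11 markers, 3, 0 and 6 were at 0 in S1pr1+ cells. Over 1% of UMIs from this list were found in 5 of 201 S1pr1+, 9 of 269 S1pr1-zero and 32 of 623 helper cells. Without such cells 141, 167 and 531 genes were called, and 8 of 12 effector genes tested were lower than in S1pr1-zero cells. Gzmb was no longer among these (-1.06, adjusted p = 0.112).

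Natural killer and unconventional T cell markers were at 105, 233 and 201 CPM in S1pr1+ cells and 982, 650 and 24.3 CPM in S1pr1-zero cells, with 7, 5 and 8 of 9 at 0 in S1pr1+ cells. This list shares Tyrobp with the macrophage and dendritic list, and Tyrobp was its only gene tested. Gated macrophages of library 2 had 3202 CPM of this list. The sum was lower in S1pr1+ cells in libraries 1 and 2 and not in library 3, as that of macrophage and dendritic markers was. Which cells it came from, and its part in the differences of cytotoxic genes, was not tested. B cell markers were at 199, 114 and 111 CPM, with 5, 6 and 7 of 8 at 0, and blood markers at 0, 14.8 and 44.6 CPM, with 7, 5 and 6 of 7 at 0. Schwann and endothelial markers were at 149, 148 and 89.1 CPM. RNA quality differed in library 1, where the median S1pr1+ cell had 2767 UMIs and 1.53% mitochondrial UMIs and the median S1pr1-zero cell had 1186 UMIs and 3.07%. In libraries 2 and 3 the medians were 2236 and 1489 UMIs against 1872 and 1746. With cells of at most 3% mitochondrial UMIs, 93 genes were called in the S1pr1-zero comparison.

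Ribosomal protein genes took 23.8%, 28.0% and 28.9% of the UMIs of S1pr1+ cells against 17.2%, 22.5% and 26.6% in S1pr1-zero, 21.2%, 26.6% and 28.1% in helper and 18.6%, 23.0% and 22.2% in Il21/Il10 cells. Of 78 tested, 13 were higher than in S1pr1-zero cells, 1 than in helper cells and 35 than in Il21/Il10 cells, and none was lower. Their median differences were 0.36, 0.09 and 0.36. Over all genes the medians were -0.00, 0.02 and 0.03, and 0.981%, 1.73% and 6.49% were called higher. Interferon-stimulated genes did not separate the gates as a list, with 0 of 13 called against S1pr1-zero and helper cells and 1, Igtp, higher than in Il21/Il10 cells. Of 8 cell cycle genes that did not set the gates, none was called against S1pr1-zero and helper cells, and Hmgb2 was higher and Mcm6 lower than in Il21/Il10 cells.

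The variety of antigen receptors was described by the Trbv gene, the variable segment of the receptor β chain. Of pairs of S1pr1+ cells from 1 library, 8.81%, 9.30% and 11.1% shared the leading Trbv gene in libraries 1 to 3. The values were 8.89%, 8.32% and 5.68% for S1pr1-zero cells, 8.29%, 9.06% and 9.77% for helper cells and 8.87%, 10.5% and 13.3% for Il21/Il10 cells. Cells with a tie for the leading Trbv gene were left out. The most frequent gene of S1pr1+ cells was Trbv19 in library 1 (9 of 54 cells), Trbv13-2 in library 2 (19 of 96) and Trbv1 in library 3 (4 of 18). The S1pr1+ cells were thus spread over many V segments, and no segment led in more than 1 library. A V segment does not identify a clone.

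The share of S1pr1+ cells among the CD4 T cells was taken per library. They were 12.2% (exact Clopper-Pearson 95% interval 9.54 to 15.3), 15.0% (12.5 to 17.7) and 14.4% (9.52 to 20.5) of Foxp3-zero CD4 T cells in libraries 1 to 3, with a mean of 13.8% ± 1.46 (SD, n = 3). The intervals overlapped and cover counting error only. Of all cells kept they were 1.69%, 1.34% and 1.63% (1.55% ± 0.184), and of all gated CD4 T cells, Foxp3+ cells included, 8.62%, 11.9% and 12.7% (11.1% ± 2.15). The cells kept differed in make-up, with 8, 1844 and 4 gated macrophages in libraries 1 to 3. Deeper cells are more likely to show S1pr1 and also the genes that exclude a cell. The share can thus depend on the UMIs per cell, which was not tested. After thinning every cell to 1000 UMIs before gating it was 11.3% ± 2.36, and with at least 2 S1pr1 UMIs required it was 6.99% ± 1.61. There was no group of mice to compare the share with.

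**Figure D5:**
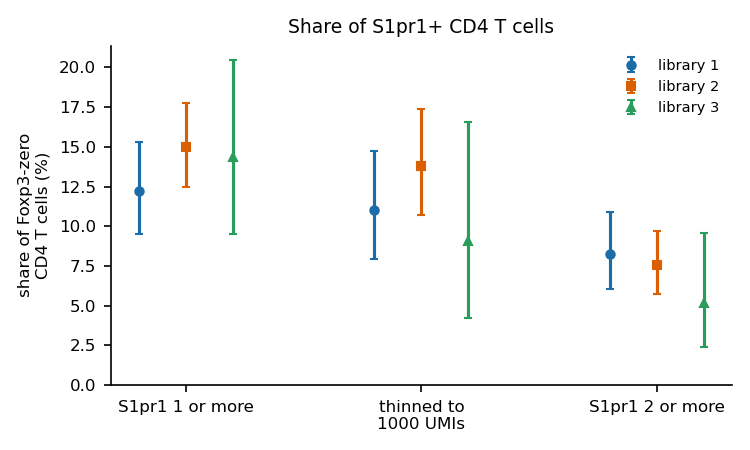
Share of S1pr1+ cells among Foxp3-zero CD4 T cells (percent, vertical axis from 0) with the gate of 1 or more S1pr1 UMIs, after thinning to 1000 UMIs and with 2 or more S1pr1 UMIs (horizontal axis), with a point per library and bars for the exact 95% binomial interval. With the first gate the 3 libraries lie between 12.2% and 15.0% with overlapping intervals.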

How the data were processed

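Single-cell 5′ RNA sequencing of CD45+ cells was analysed in 3 libraries of 1 group. Per the file headers the authors ran Cell Ranger 5.0.1 (library 1) or 6.1.2 (libraries 2 and 3), mapping to mm10 per the study's methods, and deposited raw UMI counts of 32285 gene rows per cell with no further normalization. Library 1 was read in the row order of the others, with which its row totals had a Spearman correlation across genes of 0.950 and 0.929 (0.362 and 0.321 when shifted by 1 row). No doublet caller was run, and 54, 42 and 0 cells over 5000 genes and 24, 13 and 0 over 20% mitochondrial UMIs were left out.

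Gates were set on raw counts, and UMIs were summed per library and gate (at least 10 cells). One fit of edgeR 4.0.16 in R 4.3.3 held all 4 gates, blocked on library (states of a library share mice), after filterByExpr and TMM scaling, and p-values were adjusted over every tested gene (Benjamini-Hochberg). The genes that set the gates counted towards library sizes and were not tested. CPM are UMIs scaled to a common total for every sum, without TMM. DESeq2 1.42.0, other scaling, filters, gates, thinning to 1000 UMIs per cell and leaving out each library were alternatives, and limits of 3% mitochondrial UMIs and 1% macrophage and dendritic marker UMIs per cell were chosen after seeing the data. The test was tried on simulated sums of the S1pr1-zero comparison (3959 genes). There, 96 of the genes set to each fold could be tested, and 3 unchanged genes were called.

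Genes were named from lists by function, and as those with the largest called differences in each direction among genes at a mean of 50 CPM or more. The ribosomal list leaves out pseudogenes and kinases. The cells and lists were chosen with earlier results of these data known. Intervals cover counting error only. Python 3.11.15 was used. The paired receptor sequencing and control tissue were not analysed here. Values of some genes are not reported here.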

Additional observations from a re-analysis of the deposited data

How the results depend on the processing

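The number of calls depended on the processing. Against S1pr1-zero, helper and Il21/Il10 cells 120, 201 and 538 genes were called. Without the replicate block, that is without the pairing of gates by library, edgeR called 0 genes against S1pr1-zero cells (235 at an unadjusted p under 0.05), 13 against helper cells and 88 against Il21/Il10 cells. The block was kept because all gates of a library share their mice. Leaving out 1 library gave 27 to 239, 13 to 208 and 95 to 606 calls. Thinning to 1000 UMIs, with gates set anew on the thinned counts, gave 65, 47 and 196 calls from 1624 genes tested. The S1pr1+ sum of library 3 was left out there, since it held 9 such cells. Fitting only the gates compared gave 17 calls against S1pr1-zero cells. Against helper cells DESeq2 gave 133 calls from 2456 genes with an adjusted p. A stricter exclusion of other cells gave 120 there and a gate of 2 or more S1pr1 UMIs, also without library 3, 127. The share of 13.8% was 11.3% after thinning and 6.99% with 2 or more S1pr1 UMIs, and 13.3% to 14.7% when 1 library was left out.

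Of 160 calls of named genes, 156 kept their direction under every alternative that could be fitted and 30 also stayed called. Sign changes were seen for Ccr7 against S1pr1-zero cells after thinning (-0.0711), Gzmb there (0.0931), and Zfp36 against helper cells after thinning (0.0815) and against Il21/Il10 cells under the stricter exclusion (0.23) and with at most 1% macrophage and dendritic marker UMIs (0.11). The causes were not tested. Depth limits the sums of library 3, where 3 UMIs are 66.8 CPM. On simulated sums, 37.5% of the tested genes set to differ 2-fold were found.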
